A study of Mus musculus with 4 samples.

Results

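The genes described here are 10 cytokine receptor genes of mouse splenic germinal centre B cells: Il4ra, Il2rg, Il21r, Il10ra, Il13ra1, Il9r, Il6st, Ifngr1, Ifnar1 and Il27ra. They were chosen by name as receptor chains for IL-4, IL-21, IL-10, IL-9, IL-27 and the interferons, and each had 1 row among the 37646 genes of the count tables. RNA came from C57BL/6 mice with the genotype YFPstopF/+ Cg1Cre/+, which the labels call YC controls. Cre is expressed from the Cg1 (Ighg1) locus and switches on a YFP reporter. Sheep erythrocytes had been given into the peritoneum on 2 occasions, the first 20 days before, and the cells were taken 10 days after the second dose. Living spleen cells positive for B220 and YFP were sorted. The reporter stays on in the progeny of any cell in which Cre was once active, so that memory cells and plasma cells can carry it as well as germinal centre cells. All 4 libraries form this 1 group, no untreated or lymphoma samples were analysed here, and ages are not given in the sources used here.

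Each library held 13777954 to 14629025 counts, and the labels do not say that each came from a separate animal. P-values therefore measure the spread between these samples, which may be technical in part. Pairs of libraries differed by 22.9 to 55.8 times the counting error (chi-square per degree of freedom over genes), and each was counted as 1 sample. That ratio cannot tell libraries of 1 animal from those of several. RNA of the Y-linked gene Ddx3y was found in library 3 (1307 counts) and hardly in the rest (0 to 3). Library 3 therefore held RNA of a male and did not share a single animal with the rest. A difference of library 3 from the others cannot be told apart from a difference of sex. All 8 B lineage markers and all 12 germinal centre markers reached a TPM of 1 in every library. Levels of different genes are compared as TPM, which divides counts by exon length and scales each library to the same sum. The level of 1 gene in different libraries is compared as TMM-normalised CPM, counts scaled to library size with edgeR's correction for a few very abundant RNAs. Mitochondrial genes took 18.1 to 23.3% of counts and are part of the TPM sum.

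Cytokine receptors are pairs or larger groups of transmembrane chains that bind a cytokine outside the cell and carry JAK kinases inside it. Once brought together, the kinases phosphorylate STAT transcription factors, which move to the nucleus. In the germinal centre, T follicular helper cells give B cells IL-21 and IL-4, which support proliferation, the germinal centre programme, class switching and plasma cell formation. Il2rg encodes the common gamma chain, shared by the receptors of IL-2, IL-4, IL-7, IL-9, IL-15 and IL-21.

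Sequences 5′ of the annotated start were set side by side for the highest 2 and the lowest 2 of the 10 genes, to show how far the start regions of these genes differ. RefSeq promoters (GRCm38.p6) were found for 8 of the 10 members. Each line gives the 250 bases before the start, 5′ to 3′ on the gene's own strand, with CpG dinucleotides in capitals. The windows are chr7:125603179-125603428 (plus strand) for Il21r, chrX:101268256-101268505 (minus strand) for Il2rg, chr13:112463820-112464069 (plus strand) for Il6st and chrX:36111858-36112107 (plus strand) for Il13ra1.
Il21r: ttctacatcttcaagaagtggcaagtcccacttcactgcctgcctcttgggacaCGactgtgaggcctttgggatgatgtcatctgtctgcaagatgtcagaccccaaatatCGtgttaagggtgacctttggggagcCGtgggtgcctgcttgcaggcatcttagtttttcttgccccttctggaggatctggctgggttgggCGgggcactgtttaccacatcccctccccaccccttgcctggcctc
Il2rg: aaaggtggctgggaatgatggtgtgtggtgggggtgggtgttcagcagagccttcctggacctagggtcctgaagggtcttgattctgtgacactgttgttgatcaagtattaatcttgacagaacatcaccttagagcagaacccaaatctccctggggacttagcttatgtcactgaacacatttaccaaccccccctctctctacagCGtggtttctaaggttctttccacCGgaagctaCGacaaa
Il6st: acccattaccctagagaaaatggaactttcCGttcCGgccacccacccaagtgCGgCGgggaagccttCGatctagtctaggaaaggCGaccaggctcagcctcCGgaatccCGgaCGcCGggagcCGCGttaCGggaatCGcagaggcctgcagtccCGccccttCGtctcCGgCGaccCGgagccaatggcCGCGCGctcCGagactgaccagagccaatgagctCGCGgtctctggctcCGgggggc
Il13ra1: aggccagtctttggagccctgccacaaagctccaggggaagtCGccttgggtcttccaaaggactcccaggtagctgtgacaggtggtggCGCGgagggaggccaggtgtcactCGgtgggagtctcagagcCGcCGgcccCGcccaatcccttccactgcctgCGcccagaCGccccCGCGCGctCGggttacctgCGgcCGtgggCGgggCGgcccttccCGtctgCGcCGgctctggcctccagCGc
Il21r had 4 CpG in this window and Il2rg 3, against a median of 6 over 32851 RefSeq promoters, whereas Il6st had 26 and Il13ra1 21. The other members with a promoter lay between, with 5 CpG for Il9r, 11 for Ifngr1, 17 for Il4ra and 19 for Ifnar1. Of the 250 bases of the Il4ra window, 151 lie in annotated exon, against 0 for the other members. The 2 genes printed with few CpG were the most abundant members and the 2 with many were the least abundant. The pairs were picked by level, so this is a description of 4 genes.

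Both strands of the same windows were searched for 6 short motifs. The STAT motif TTCNNNGAA was in 0 of the 8 members and in 7.02% of all promoters. Its STAT6 form, with 4 free bases between TTC and GAA, was in 0 of 8 and 5.85%. The core of the interferon response element, TTTC repeated after 2 free bases (2.98% of all promoters), the ETS motif AGGAAGT (7.69%) and TATAAA (12.4%) were also in 0 of 8. The GC box GGGCGG was in 6 of 8 members, all but Il2rg and Il9r, and in 32.7% of all promoters. No match says only that these letters are not in this window.

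RNA of 9 of the 10 genes reached 1 TPM in all 4 libraries, a level that 30.8% of all genes with a length reached. At 1 CPM the count was also 9, against 30.3% of all genes. Il21r, Il2rg and Il4ra, the chains that receive IL-21 and IL-4, were the highest and together made up 69.9% ± 1.78 (SD, n = 4) of the members' summed TPM. The exception was Il13ra1. In sorted bulk RNA, fewer cells with a transcript and less RNA per cell cannot be told apart. Of the 9 steps between neighbours in the order of mean TPM, 7 had library ranges that did not overlap.

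**Figure D1:**
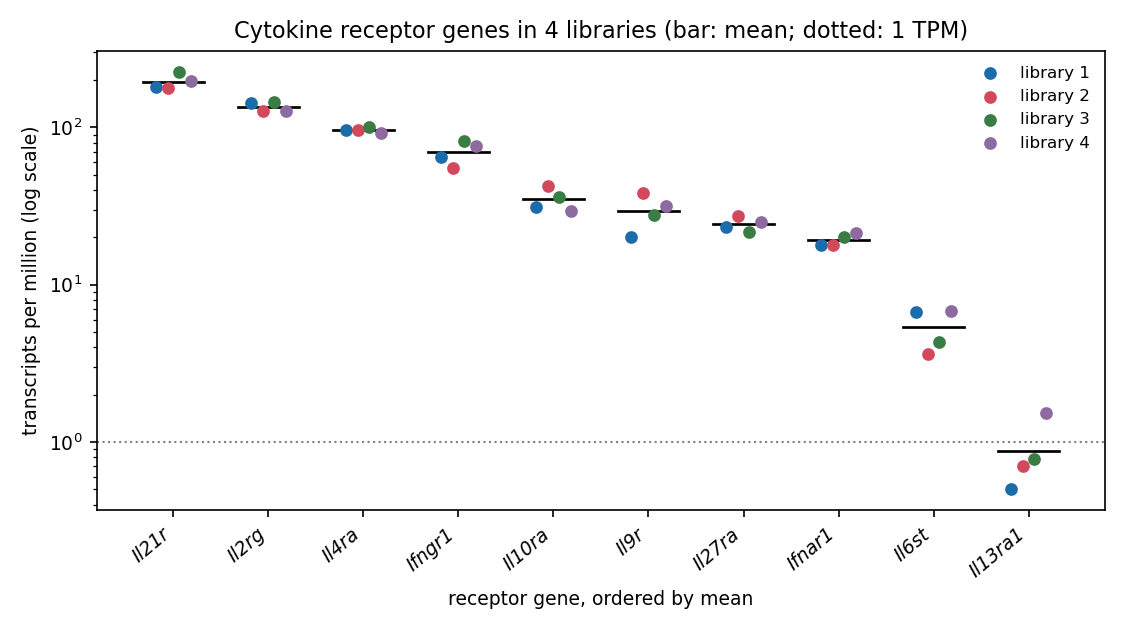
TPM of the 10 receptor genes on a log axis, 1 point per library, with a black bar at the mean of 4 libraries and a dotted line at 1 TPM. Il21r lies highest (177.8 to 226.2 TPM) and only Il13ra1 has libraries under 1 TPM.

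Il21r encodes the ligand-binding chain of the IL-21 receptor, which signals mainly through STAT3. It stood at 180.3, 177.8, 226.2 and 197.4 TPM in libraries 1 to 4, a mean of 195 ± 22.3 (SD, n = 4), higher than 96.7% of the 11554 genes at 1 TPM or more. Counts ran from 3860 to 4436. On the TMM-normalised scale its 4 libraries lay within 1.09-fold of each other, from 273.9 to 298.2 CPM. The highest library depended on the scale, library 3 by TPM and library 2 by TMM-normalised CPM.

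Il4ra encodes the chain that binds IL-4 and recruits STAT6. Its TPM was 95.8, 96.1, 100.8 and 92.4 in libraries 1 to 4, a mean of 96.3 ± 3.44 (SD, n = 4). The coefficient of variation of TPM was 3.58%, and 0.493% of the genes at 1 TPM or more had a lower value. By TMM-normalised CPM the range was wider, 238.2 to 291.0, with library 2 highest. Il4ra (chromosome 7, 125552120 to 125579474, mm10) lies 24.0 kb before Il21r on the same strand, with 0 protein-coding genes between them.

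Within each library Il21r exceeded Il4ra, the log2 TPM difference Il4ra minus Il21r being -0.91, -0.89, -1.17 and -1.10 in libraries 1 to 4. The mean was -1.02 ± 0.14 (SD, n = 4), a 2.02-fold higher level of Il21r. Without division by length the log2 CPM difference was -0.16. This was 1 of 9 pairs of chains compared within libraries. Each pair had 1 direction in 4 of 4 libraries, and the two-sided exact sign-flip permutation test gave p = 0.13 for every pair (adjusted over 9 pairs, also 0.13), the smallest that 4 libraries allow.

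Il2rg, the common gamma chain, is encoded on the X chromosome (101264378 to 101268255). It stood at 143.1, 126.8, 144.7 and 126.4 TPM in libraries 1 to 4 (135 ± 9.99, SD, n = 4). Libraries 1 and 3 were a little higher by TPM, but by TMM-normalised CPM libraries 1 and 2 were (156.0 and 152.7, against 136.0 and 131.0). In library 3, which held the Ddx3y RNA, Il2rg was the highest by TPM and lay between the others by TMM-normalised CPM.

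By exon length Il2rg was 1.40-fold above Il4ra and 1.44-fold below Il21r in 4 of 4 libraries. Without division by length the difference from Il4ra reversed, from a log2 difference of 0.49 to -0.84. Its own level carries a limit from the annotation. Of its 2387 exon bases, 728 are shared with Gm20489, a gene on the same strand listed at 0 counts in these tables, and the counting of reads in shared bases is not given in the sources used here. If shared bases are left out of the lengths, an alternative added after the data were seen, Il2rg rises to 194.6 TPM and the difference from Il21r vanishes (log2 difference -0.003, exact sign-flip permutation p = 1). The order of Il21r and Il2rg is therefore not settled. Both stayed above Il4ra under that alternative, at 106.4 TPM.

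**Figure D2:**
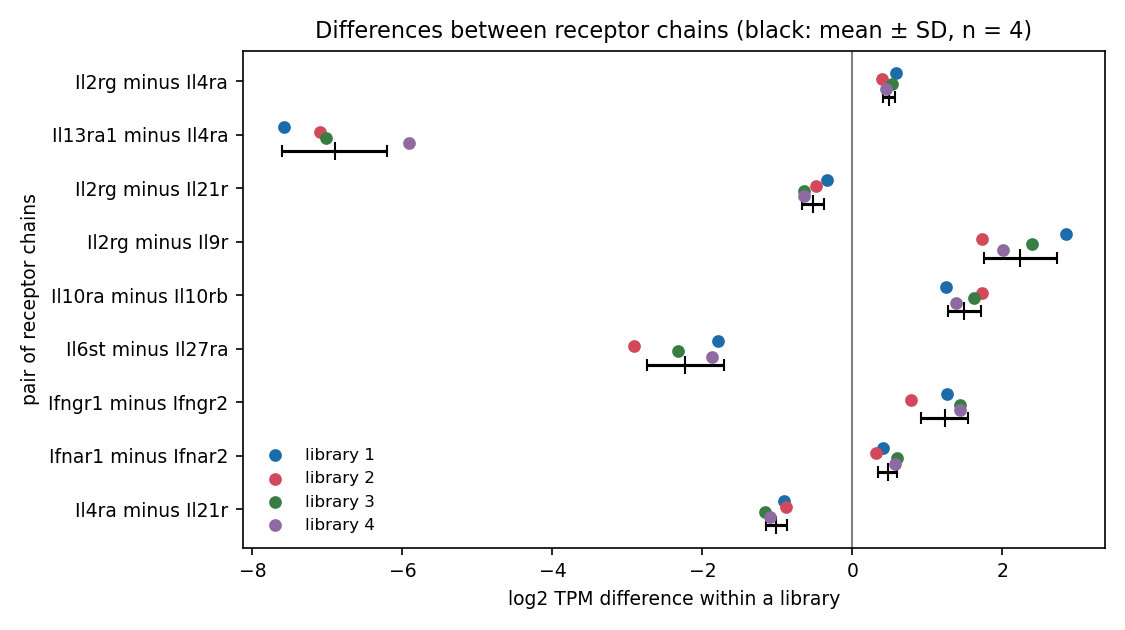
Log2 TPM difference between 2 receptor chains, 1 coloured point per library, with the mean ± SD (n = 4) in black and a line at 0. All 4 libraries of each pair lie on 1 side of 0, and Il13ra1 lies far below Il4ra (-5.92 to -7.58).

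Il13ra1 pairs with Il4ra in the type II IL-4 receptor, which binds IL-13 as well. It had 12, 17, 17 and 36 counts in libraries 1 to 4, and 0.50, 0.70, 0.78 and 1.53 TPM (0.877 ± 0.451, SD, n = 4). The exact 95% Poisson interval, which covers counting error only, was 6.20 to 20.96 for the 12 counts of library 1 and 25.2 to 49.8 for the 36 of library 4. Library 4 was highest and library 1 lowest on all 7 scales compared. These were plain CPM, TMM-normalised CPM, CPM with edgeR's relative log expression factors, and TPM in several forms. Besides TPM itself, those forms left out mitochondrial and immunoglobulin genes, used the longest transcript as length, or left out shared exon bases. The last form multiplies a gene's TPM by a constant, so it always has the library order of TPM. Il13ra1 was 120-fold below Il4ra, a mean log2 difference of -6.90 ± 0.70. Macrophage and monocyte markers, which belong to cells known to express Il13ra1, summed to 252.0, 180.5, 160.5 and 197.7 TMM-normalised CPM, with 9 of 10 at 1 TPM or more in every library and 0 markers without counts. Library 1 had most of these and least Il13ra1. Library 4 had the highest sums of neutrophil markers (116.7 against 44.9 to 81.8 elsewhere, 5 of 8 at 1 TPM or more in every library), dendritic cell markers (110.2 against 74.5 to 96.0, 3 of 8) and erythroid markers (93.6 against 30.2 to 39.3, 4 of 8). Every marker of these lists had counts in at least 1 library. Some macrophage, neutrophil and dendritic cell markers were not highest in the library where their list's sum was. The part of these markers in the Il13ra1 level was not tested.

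Il9r encodes the specific chain of the IL-9 receptor, which pairs with Il2rg. Its TPM was 20.0, 38.4, 27.6 and 31.6 in libraries 1 to 4 (29.4 ± 7.71, SD, n = 4). Library 2 was highest and library 1 lowest on all 7 scales, and by TMM-normalised CPM they stood at 95.9 and 45.1, a 2.13-fold range. Counting error was far smaller, with exact 95% intervals of 1175 to 1314 for the 1243 counts of library 2 and 588 to 687 for the 636 of library 1. Il2rg exceeded Il9r 4.72-fold, by 2.24 ± 0.49 log2, and by 1.19 without length.

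Il10ra encodes the ligand-binding chain of the IL-10 receptor, which signals through STAT3. It stood at 31.3, 42.5, 35.9 and 29.6 TPM in libraries 1 to 4 (34.8 ± 5.80, SD, n = 4). By TMM-normalised CPM library 2 was at 75.1 and the other 3 between 44.9 and 50.02. The gap of library 2 to the rest was past Dixon's 95% limit for 4 values on that scale, as it was for 5.2% of all tested genes, and within it by TPM. It overlapped Il9r, its neighbour in the order, and was above it in 3 of 4 libraries. Its partner Il10rb, the accessory chain shared with IL-22 and the lambda interferons, was at 12.3 ± 0.895 TPM, 2.81-fold lower.

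Il27ra and Il6st encode the chains of the IL-27 receptor. Il6st is gp130, the signalling chain shared with IL-6 and related cytokines. Il27ra was at 23.4, 27.5, 21.6 and 24.9 TPM (24.4 ± 2.49, SD, n = 4), with library 2 highest and library 3 lowest on all 7 scales. Sums of the 8 plasma cell markers, all at 1 TPM or more in every library, had the same extremes (2995, 3101, 1529 and 2714 TMM-normalised CPM). The 12 memory B cell markers had them too (522.2, 746.2, 486.0 and 533.5). The memory marker sums followed the whole library order of Il27ra by TMM-normalised CPM (37.4, 48.5, 29.8 and 37.8). The plasma cell marker sums did not, with library 1 above library 4. By TPM the plasma cell marker sums were instead highest in library 1 (2212, 2021, 1167 and 2066). Memory marker sums were lowest there (221.2, 317.5, 240.7 and 240.9). Not every marker of either list had the extremes of its sum. For Il27ra libraries 1 and 4 were close, with overlapping exact 95% Poisson intervals of 483 to 574 and 506 to 599 counts. The part of either marker list in the Il27ra level was not tested. Il6st was at 6.73, 3.65, 4.32 and 6.80 TPM in libraries 1 to 4 (5.38 ± 1.63, SD, n = 4). Libraries 1 and 4 were high and libraries 2 and 3 low on this scale and by TMM-normalised CPM.

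Il6st was 4.68-fold below Il27ra per length (-2.23 ± 0.51 log2) and 0.56 log2 below it without length, since its exons span 11099 bases. Il6ra, which joins gp130 in the IL-6 receptor, was at 7.38 ± 1.15 TPM. The ligand side of the pair was present too. Ebi3 and Il27, which encode the subunits of IL-27, were at 39.2 ± 9.06 and 3.73 ± 1.09 TPM.

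Among the interferon receptors, Ifngr1, the ligand-binding chain for interferon gamma, was at 64.8, 55.1, 81.5 and 76.0 TPM in libraries 1 to 4 (69.3 ± 11.7, SD, n = 4). Library 2 was lowest on all 7 scales, but the range narrowed from 1.48-fold by TPM to 1.19-fold by TMM-normalised CPM. Its partner Ifngr2, the chain that brings JAK2, was at 29.3 ± 2.24 TPM, 2.34-fold lower. Ifnar1, a chain of the type I interferon receptor, was at 18.0, 17.8, 20.0 and 21.3 TPM (19.3 ± 1.67, SD, n = 4), close together in all 4 libraries. Ifnar2, the other chain, was at 13.9 ± 0.554 TPM, 1.38-fold lower. Ifnar2, Il10rb, Ifnar1 and Ifngr2 follow each other on the plus strand of chromosome 16, with gaps of 0.6, 59.4 and 39.6 kb and 0 protein-coding genes in between. Of their exon bases, 315 of Ifnar2 and 569 of Il10rb are shared with Gm21970.

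Variation between libraries was tested over 11982 genes with edgeR, by setting each gene's quasi-dispersion against the trend at its expression level. None of the 10 members passed at an adjusted p of 0.05 (0.00835% of tested genes did). By limma-voom 0 members were called, as were 0 of all 11982 genes. DESeq2 flagged 0 members and 159 of the 11982 genes as dispersion outliers, which is a flag and not a test at that threshold. By edgeR 1 member, Il9r, had an unadjusted p under 0.05, where 4.97% of all tested genes lay under that threshold. Il9r varied 7.08 times as much as the trend (edgeR unadjusted p = 0.0307, adjusted p = 0.874, 0.533 to 0.990 over the alternatives). Without library 2 its unadjusted p by edgeR was 0.155. Il6st followed at 4.01 times the trend and Il10ra at 3.39, both with an edgeR adjusted p of 0.990. Il21r was the steadiest, at 0.11 times the trend. The median coefficient of variation of TPM was 11.4% over the 9 members at 1 TPM or more and 18.9% over all 11554 such genes. These sets were not matched on level. Il9r and Il6st lay at percentiles 74.5 and 81.9 of that coefficient among those genes.

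**Figure D3:**
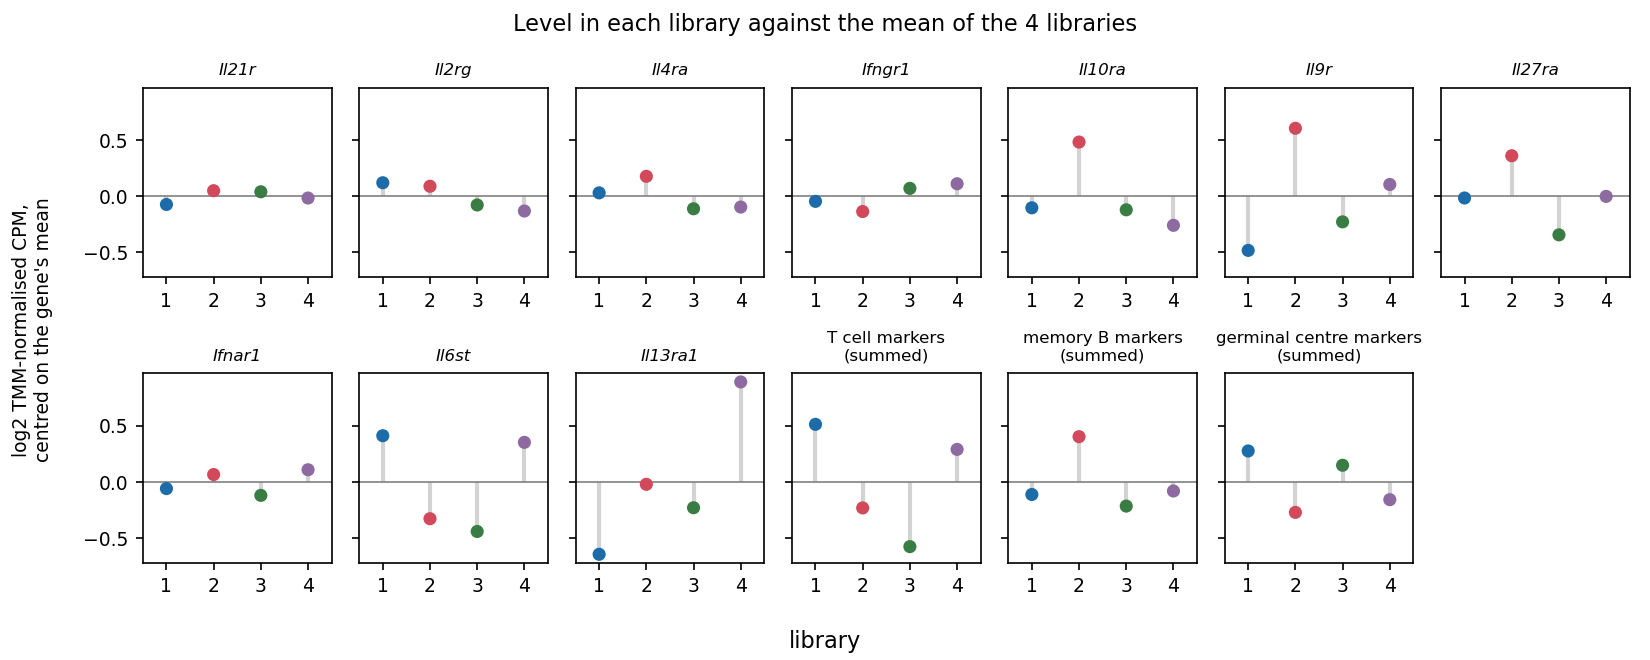
Log2 TMM-normalised CPM of each receptor gene in libraries 1 to 4, centred on the gene's own mean, beside the summed level of 3 marker lists. Il9r (-0.48 to 0.61), Il6st (-0.44 to 0.41) and Il13ra1 (-0.64 to 0.89) spread most, and Il21r, Il2rg, Ifngr1 and Ifnar1 stay within 0.14 of 0.

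By TMM-normalised CPM, markers of T cells moved between libraries in the same order as Il6st. The 14 T cell markers summed to 529.3, 315.9, 248.8 and 453.4 TMM-normalised CPM in libraries 1 to 4, and Il6st stood at 34.1, 20.4, 18.9 and 32.8. Of these markers 12 reached 1 TPM in every library and 0 were without counts. NK cell markers summed to 81.4, 41.5, 31.2 and 66.6, again in that order. The macrophage and monocyte sums given with Il13ra1 (252.0, 180.5, 160.5 and 197.7) ran in that order as well, so it was not particular to lymphocyte markers. By TPM Il6st was instead highest in library 4 and lowest in library 2. T cell marker sums by TPM were highest in library 1 and lowest in library 3 (696.1, 372.2, 370.3 and 605.8). Exact 95% Poisson intervals of Il6st overlapped for libraries 1 and 4 (439 to 526 and 436 to 523 counts). They also overlapped for libraries 2 and 3 (234 to 299 and 251 to 318). Not every T cell or NK cell marker had the extremes of its sum. T cells express gp130 as well, and the part of other cells in the Il6st level was not tested.

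Il7r and Il2rb, which pair with Il2rg in the IL-7 and IL-2 receptors and are abundant in T and NK cells, were also high in libraries 1 and 4. Il7r was at 34.6, 14.7, 12.1 and 26.5 TMM-normalised CPM and Il2rb at 79.5, 57.9, 52.1 and 86.4. Of the 55 receptor and signalling genes that were tested, the gene whose centred profile lay closest to Il6st was Il2rb. The mean absolute difference was 0.088 log2 over 4 libraries, and Il18r1 was nearly as close at 0.092. By TMM-normalised CPM Il2rb was highest in library 4 and Il6st in library 1.

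Il9r stood beside other markers. The 12 memory B cell markers, all at 1 TPM or more in every library, summed to 522.2, 746.2, 486.0 and 533.5 TMM-normalised CPM, with library 2 highest as for Il9r. The 12 germinal centre markers summed to 2489, 1703, 2279 and 1843, lowest in library 2 and highest in library 1, the reverse order of Il9r. By TPM the germinal centre sums were highest in library 3 instead (2170, 1501, 2571 and 1900). In both lists some markers did not have the extremes of their sum. Memory marker sums were lowest in library 3, and Il9r in library 1. The part of these markers in the Il9r level was not tested. The closest profile to Il9r was that of Csf2rb, the shared beta chain for IL-3, IL-5 and GM-CSF (0.12 log2). For the others the closest was Irf9 for Il4ra (0.03) and Ifnar1 (0.07), Pias1 for Il2rg (0.05), Ptpn6 for Il10ra (0.08), Il5ra for Il13ra1 (0.18), Ifnlr1 for Ifngr1 (0.04) and Ifnar2 for Il27ra (0.07). Il21r was closest to Socs1 (0.06), but its own mean deviation from a flat line was smaller (0.04), so that match carries no information. Mean deviations of Il4ra (0.10), Il2rg (0.10), Ifngr1 (0.09) and Ifnar1 (0.09) were small as well. Some gene is always the closest, and whether any match is closer than chance gives was not tested.

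Of 37 other cytokine receptor chains listed, 35 had a row and 21 reached 1 TPM in all 4 libraries. Crlf2, a chain of the TSLP receptor, was the highest at 69.5 ± 17.2 TPM, close to the mean of Ifngr1. Il17ra (49.7 ± 8.01), Tgfbr2 (43.3 ± 4.08) and Csf2ra (37.3 ± 11.2) led the list of chains outside the members' own receptor groups. Il2ra, the chain that gives the IL-2 receptor high affinity, was near the threshold at 1.09 ± 0.405 TPM, and Il15ra was at 1.63 ± 0.412. Il20ra and Il22ra1 had 0 counts in every library, which allows up to 0.205 to 0.218 CPM in each. In the edgeR test 0 of the 25 chains tested passed, and 2 had an unadjusted p under 0.05. Of all tested genes, 0.00835% passed and 4.97% lay under that unadjusted threshold. The 2 chains were Il7r, with an edgeR adjusted p of 0.754, and Il1r2, a decoy receptor for IL-1, with an edgeR adjusted p of 0.815.

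**Figure D4:**
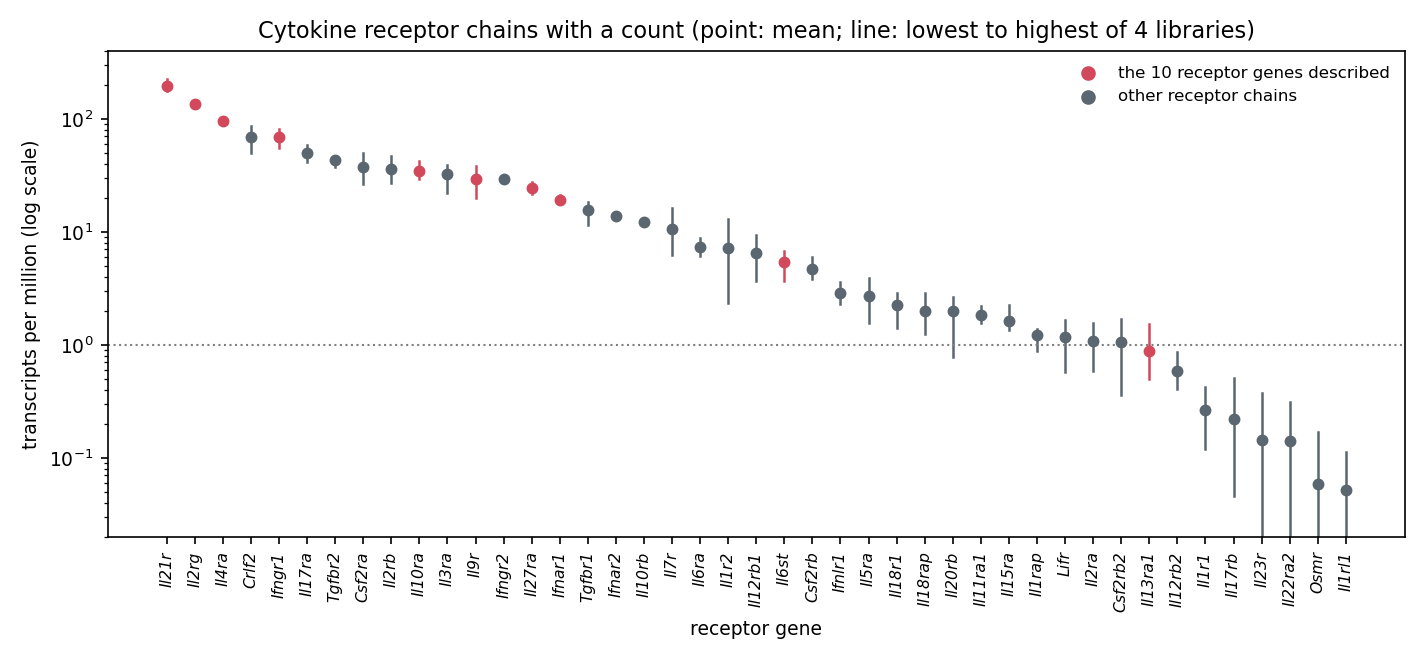
Mean TPM (point) and lowest to highest library (line) of the receptor chains with at least 1 count, on a log axis, with the 10 genes described in red. Lines that reach the lower edge belong to chains with a library at or near 0. Il21r, Il2rg and Il4ra are the highest chains listed.

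Kinases and STAT factors of these receptors were present. Of 20 signalling genes, 18 reached 1 TPM in all 4 libraries. Jak1, used by nearly all these receptors, was at 143 ± 20.5 TPM and Jak3, which binds the common gamma chain, at 87.2 ± 18.3. Jak2 was at 41.5 ± 12.0 and Tyk2 at 39.4 ± 4.32. Stat6, the factor of IL-4, was the highest STAT at 104 ± 7.71 TPM, and the phosphatase gene Ptpn6 led the list at 506 ± 49.3. Cish, a feedback inhibitor, was lowest at 1.06 ± 0.364.

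RNA for the helper cytokines themselves was at or near the limit of detection. Of 15 ligand genes with a row, 3 reached 1 TPM in all 4 libraries: Ebi3, Il27 and Il10 (8.49 ± 3.28 TPM). Il4 had 2 to 6 counts per library and Il21 1 to 5. Ifng, made by T and NK cells, had 62, 27, 7 and 61 counts, high in the same libraries as Il6st. The type I interferon genes Ifnb1, Ifna1, Ifna2 and Ifna4 had 0 counts in every library.

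Genes known to respond to these receptors were described by level only, since no unstimulated cells were measured. Of 10 genes listed for IL-4 and STAT6, Il4ra among them, 8 reached 1 TPM throughout, led by Fcer2a (417 ± 110 TPM), the low-affinity IgE receptor, and Xbp1 (201 ± 39.6), whereas Il4i1 was at 0.118 ± 0.122. All 8 genes listed for IL-21 and STAT3, with Il21r among them, did so, from Pim1 (213 ± 63.2), a survival kinase, and Batf (77.1 ± 11.2), an AP-1 family transcription factor, to Gzmb (6.27 ± 1.43). Of 20 interferon response genes 19 did, from Ifi27l2a (214 ± 39.5), Stat2 (55.7 ± 12.2) and Irf1 (53.7 ± 3.74) down to Ifit1 (1.304 ± 0.478). In the edgeR test of variation 0 genes of these 3 lists passed, where 0.00835% of all tested genes did. An edgeR unadjusted p under 0.05 was found for 3 of 9 tested genes of the IL-4 and STAT6 list. It was found for 1 of 8 of the IL-21 and STAT3 list and 0 of 20 interferon response genes, against 4.97% of all tested genes.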

How the data were processed

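Deposited values are raw read counts per gene, 1 table per library, which the authors made from poly(A)-selected single-end reads of 50 nt. Tools named in the submitters' processing notes are STAR 2.5.2b, featureCounts 1.6.0 and FastQC, with mm10 as the build. Annotation release, strand setting and treatment of shared reads are not given in the sources used here. Members and gene lists were chosen with earlier results of these data known. Of 37646 identifiers, 37536 matched GENCODE M21 (GRCm38) and gave exon-union lengths for TPM. Library sizes gave a floor of 3 counts, or 0.205 to 0.218 CPM.

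Each gene's spread between libraries was tested by edgeR 4.0.16 under R 4.3.3 (TMM after filterByExpr, an intercept-only quasi-likelihood fit, upper tail of F, Benjamini-Hochberg at 0.05 over 11982 genes), and checked on simulated data. DESeq2 1.42.0 and limma 3.58.1 were alternatives. Pairs of chains were compared by log2 TPM within libraries with two-sided exact sign-flip permutations. Shared exon bases were examined after the data were seen. Named genes are all members and their partner chains, the JAK genes, the 3 highest and the lowest of each pathway list and the closest profile to each member. Of marker lists only sums and counts are given. Others (Ddx3y, Stat6 as the highest STAT, Il4, Il21, Ifng, the interferon genes, Il15ra, Il1r2, Il18r1, Gm20489 and Gm21970) were picked after their values were seen. Of the listed symbols, 3 had no row and are not analysed here.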

Additional observations from a re-analysis of the deposited data

Results flagged for a closer look

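Il10ra in library 2 stood apart from the other 3 libraries on the TMM-normalised scale, at 75.1 CPM against 44.9 to 50.02. The gap to the nearest library was 0.83 of the whole range, just past Dixon's 95% limit for 4 values. It was 0.838 of the range with edgeR's relative log expression (RLE) factors, 0.807 by plain CPM and 0.514 by TPM. The last 2 lay within the limit. This is 1 of 10 members, and 5.2% of all 11982 tested genes had such a gap, about the 1 in 20 that chance gives. By TMM-normalised CPM library 2 had the highest sums of memory B cell markers (746.2), plasma cell markers (3101) and B lineage markers (9802). By TPM the plasma cell marker sum was highest in library 1 and the B lineage sum in library 3. In each of these lists some markers were not highest in library 2 by TMM-normalised CPM. The part of these markers in the Il10ra value was not tested.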

How the results depend on the processing

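Without gene length (log2 CPM) the difference Il2rg minus Il4ra reversed, from 0.49 to -0.84, because Il4ra is the longer transcript. On that scale Il2rg minus Il21r was -1.01, Il2rg minus Il9r 1.19, Il6st minus Il27ra -0.56, Ifngr1 minus Ifngr2 0.83, Ifnar1 minus Ifnar2 1.304 and Il4ra minus Il21r -0.16. With the longest transcript as length, Il2rg minus Il4ra was 0.81, Il10ra minus Il10rb 1.04, Ifngr1 minus Ifngr2 1.64, Ifnar1 minus Ifnar2 0.94 and Il4ra minus Il21r -1.24. Without shared exon bases, Il2rg minus Il4ra was 0.87, Il2rg minus Il21r -0.00266, Il2rg minus Il9r 2.76, Il10ra minus Il10rb 1.26, Ifnar1 minus Ifnar2 0.33 and Il4ra minus Il21r -0.87. Leaving mitochondrial and immunoglobulin genes out of the TPM total raised all 10 members 2.15- to 2.20-fold and brought all 10 to 1 TPM or more in every library. Neighbours in the order with no overlap, 7 of 9, numbered 5 to 8 over all alternatives, with 5 for the longest transcript. Genes called variable, 1 of 11982 by edgeR, numbered 0 to 19 with 1 library left out (0 without library 2, with 557 at an unadjusted p under 0.05, 3 without library 4 and 19 without library 3), 262 without a filter on low counts, 63 with robust estimation, 159 as DESeq2 dispersion outliers and 0 by limma-voom (603 at an unadjusted p under 0.05). Members called were 0 under every one of these. Libraries could not be paired between groups because all belong to 1 group, and only chains were paired, within libraries. Il13ra1, at 12 to 36 counts, is limited by depth.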

Other observations

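The common gamma chain gene was set beside the sum of the chains that pair with it, a comparison added after the values were seen. Il4ra, Il21r, Il9r, Il7r and Il2rb summed to 368 ± 22.2 TPM, 2.73 ± 0.223 times Il2rg (SD, n = 4), with ratios of 2.47, 2.72, 2.71 and 3.01 in libraries 1 to 4. The ratio was 2.35 ± 0.190 with the longest transcript as length and 1.95 ± 0.157 without shared exon bases. It stayed above 1 in 4 of 4 libraries with each length. These are RNA levels, and protein on the cell surface was not measured.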
